A study of Mus musculus with 10 samples.

Results

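Marker genes of GABAergic interneurons were examined in bulk RNA from the nucleus accumbens (NAc), the ventral part of the striatum, of 2 inbred mouse strains. The 8 genes were chosen by name: Sst, Npy, Nos1, Chodl, Pvalb, Calb2, Vip and Cck. All 8 were found among the 29883 genes of the deposited count table, and none was lost to a filter on low values. Each was counted in every mouse, from a lowest count of 208 reads to a highest of 18417. The mice were ethanol-naive males of the strains C57BL/6J (B6) and DBA/2J (D2), killed at 9 weeks of age with no treatment, and 5 mice per strain gave 1 poly-A library each. The study was made to compare the strains, which are the progenitors of the BXD recombinant inbred panel and differ in their behavior after ethanol. The tissue was micro-dissected by hand, so a library could hold tissue from beyond the NAc, and the spread within a strain was therefore also set against Slc17a7. Slc17a7 encodes the vesicular glutamate transporter VGLUT1, which projection neurons of the cortex express at high levels and projection neurons of the striatum hardly express.

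Most neurons of the NAc are GABAergic projection neurons, and interneurons are a small minority that shapes their firing through local inhibition and released peptides. In the striatum Sst, Npy and Nos1 are made by the same class of interneuron, whereas Pvalb marks the fast-spiking class and Calb2 a further one. Vip and Cck are best known as markers of interneurons in the cortex, where Cck is also made by many glutamatergic projection neurons, so that the cells behind a read of these genes are not given by its name. In RNA from whole tissue, fewer cells of a class and less RNA per cell cannot be told apart.

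The libraries held 96977262 to 111468080 counted reads in B6 and 104443243 to 116776714 in D2. Levels are given below as CPM (counts scaled to a common library size after TMM normalization, edgeR's trimmed mean of M-values), and differences as log2 values. All 10 genes of a striatal projection neuron list were detected, with a summed level between 3516 and 5341 CPM in every library, which fitted the labelled tissue. B6 replicates 3 and 5 stood apart. Slc17a7 had 63.0, 57.2, 774, 130 and 791 CPM in B6 replicates 1 to 5, against 174, 448, 493.04, 384 and 254 CPM in D2 replicates 1 to 5. The summed level of 10 genes of cortical projection neurons, Slc17a7 among them, ran from 248.9 to 1087 CPM in B6 and from 388.7 to 759.4 CPM in D2. Across 15388 genes whose mean normalized count reached 100, replicates 3 and 5 differed from each other by a mean chi-square of 4.89 per gene, where sampling noise gives about 1. Each differed from another B6 library by 85.5 to 119, while the other B6 libraries differed from one another by 19.1 to 23.8. The labels name them as 2 mice and they were kept as such, but this distance cannot show that the libraries are independent, and whether they are related or were dissected together is not known. The main edgeR tests of strain and slope and the correlations of the 8 genes are given below with and without them. The fit with Slc17a7 as a covariate, the DESeq2 test, the exact strain test and the test of slopes between strains used all 10 mice.

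Sst and Npy were the most abundant of the 8 transcripts per length. On the scale of CPM per kilobase of the canonical transcript, the mean over the 10 mice was 87.2 ± 9.59 (SD, n = 10) for Sst and 80.4 ± 10.5 for Npy. The ranges of these neighbors overlapped, and Sst was above Npy in 7 of the 10 mice. Calb2 followed with 13.2 ± 3.56 and Nos1 with 10.4 ± 0.928, then Cck with 8.48 ± 5.79, Vip with 4.204 ± 1.99, Pvalb with 3.60 ± 0.991 and Chodl with 1.35 ± 0.322 CPM per kilobase. A gap without overlap separated Sst and Npy from the other genes. Chodl was below Pvalb without overlap, but its range (0.75 to 1.79) reached into that of Vip (1.405 to 7.25). The levels in between overlapped with their neighbors. Dividing by all exonic bases of a gene instead put Pvalb above Vip in all 10 mice, so the order of this pair depended on the length used. On that scale Sst was above Npy in all 10 mice without overlap. Vip and Chodl overlapped there, with Vip above in 6 of the 10 mice.

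The sequences before 2 peptide genes are shown because the cAMP response element, the site of the factor CREB, was first defined in the Sst promoter. Among RefSeq promoter windows (250 bases before to 50 bases after each gene's start, GRCm38.p6), 7 of the 8 genes had an entry. The palindrome TGACGTCA stood in that of Sst alone, and in 588 of all 32851 windows (1.79%) on either strand. Its first 6 letters, TGACGT, stood in the windows of Sst and Vip and in 2468 of all windows (7.51%), a count that holds those with the full palindrome. The matches lay 48 bases before the start of Sst and 79 bases before that of Vip. These starts are those of the RefSeq windows and differ from the ends of the GRCm39 gene spans printed below. The Sst match lies inside the gene span printed there. Both stretches were found once on the gene's chromosome in GRCm39, Sst at chr16:23709626-23709651 on the reverse strand and Vip at chr10:5589129-5589154 on the forward strand, and the capitals mark the matched letters.
Sst: ctccttggcTGACGTCAgagagagag
Vip: atcactactgTGACGTctttcgggga

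Sst (ENSMUSG00000004366, GRCm39 chromosome 16, 23707321 to 23711733) encodes somatostatin, an inhibitory peptide. It had 134, 143, 175, 147 and 175 CPM in B6 replicates 1 to 5 and 139, 165, 155, 130 and 141 CPM in D2 replicates 1 to 5. The highest values were those of B6 replicates 3 and 5, and the strains overlapped over most of their range. Npy (ENSMUSG00000029819, chromosome 6, 49799026 to 49806489) encodes neuropeptide Y. It had 34.9, 41.7, 47.2, 41.0 and 48.7 CPM in B6 and 42.7, 56.3, 50.4, 43.6 and 48.3 CPM in D2. B6 replicate 1 was the lowest and D2 replicates 2 and 3 the highest, and B6 replicates 3 and 5 reached into the D2 range.

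Nos1 (ENSMUSG00000029361, chromosome 5, 117918971 to 118096905) encodes the neuronal nitric oxide synthase. Its levels were 116, 124, 95.3, 105 and 96.6 CPM in B6 and 116, 99.3, 103, 104 and 102 CPM in D2. It was the steadiest of the 8 genes, and here B6 replicates 3 and 5 were the lowest of all mice. Chodl (ENSMUSG00000022860, chromosome 16, 78727732 to 78748624) encodes chondrolectin, a membrane protein that marks the long-range projecting Sst and Nos1 neurons of the cortex. It had 4.74, 3.99, 2.38, 4.00 and 1.98 CPM in B6 and 3.79, 4.11, 3.04, 4.05 and 3.71 CPM in D2. B6 replicates 3 and 5 were again the lowest of the 10 mice, and the other B6 mice lay within the D2 range or above it.

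Pvalb (ENSMUSG00000005716, chromosome 15, 78075314 to 78091149) encodes parvalbumin, the calcium buffer of fast-spiking interneurons. It had 8.62, 11.2, 9.47, 9.26 and 9.12 CPM in B6 and 17.8, 10.2, 14.1, 8.76 and 14.4 CPM in D2. D2 replicates 1, 3 and 5 were above every B6 mouse, and the other two lay inside the B6 range. For this gene B6 replicates 3 and 5 did not stand out. Calb2 (ENSMUSG00000003657, chromosome 8, 110864128 to 110894881) encodes calretinin, another calcium buffer. It had 23.3, 23.1, 12.2, 16.4 and 12.2 CPM in B6 and 24.9, 21.6, 13.996, 25.8 and 20.6 CPM in D2. The lowest were B6 replicates 3 and 5, followed by D2 replicate 3, and the remaining values of the strains were mixed.

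Vip (ENSMUSG00000019772, chromosome 10, 5589186 to 5599956) encodes vasoactive intestinal peptide. It had 3.05, 2.20, 11.4, 3.96 and 10.7 CPM in B6 and 4.60, 7.88, 8.15, 7.63 and 6.38 CPM in D2. B6 replicates 3 and 5 were above all D2 mice and the other B6 mice below all of them, so the B6 values lay on both sides of the D2 group. Cck (ENSMUSG00000032532, chromosome 9, 121315695 to 121324863) encodes cholecystokinin. It had 11.3, 12.4, 76.9, 18.9 and 70.1 CPM in B6 and 15.9, 36.3, 27.8, 40.6 and 28.1 CPM in D2. The pattern was that of Vip with a wider range, except that D2 replicate 1 was below B6 replicate 4. Of the 8 genes, Nos1 and Cck overlapped other annotated genes, and the only such gene with counts in the table, Gm26995 on the strand opposite to Nos1, had a mean of 1.5 counts against 11487 for Nos1.

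**Figure D1:**
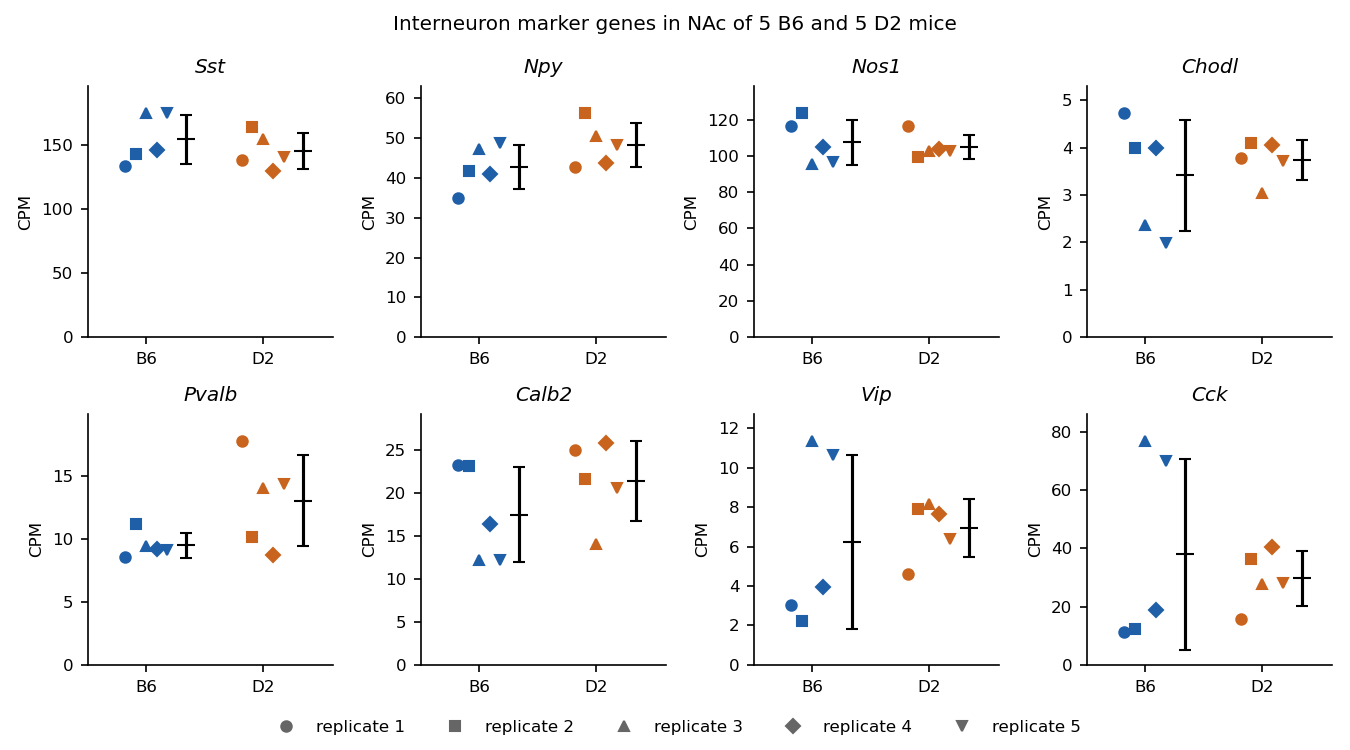
Level of each gene in every mouse, in CPM on linear axes that start at 0. Symbols stand for the replicates, B6 in blue and D2 in orange, and the bars beside them give the mean ± SD of 5 mice. Among B6 mice, replicates 3 and 5 were the highest for Sst, Npy, Vip and Cck and the lowest for Nos1, Chodl and Calb2, and no gene separated the strains.

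No gene of the 8 separated the strains. Their CPM ranges overlapped in 8 of 8 cases, whereas the ranges of 16.0% of all genes did not overlap. In edgeR's quasi-likelihood test of D2 against B6, 0 of the 8 passed an adjusted p of 0.05, against 18.3% of all genes tested. Pvalb came nearest, with 9.53 ± 0.989 CPM (SD, n = 5) in B6 and 13.1 ± 3.62 CPM in D2, a log2 difference of 0.45 ± 0.162 (standard error) that missed the threshold (adjusted p = 0.0739). DESeq2 gave the same size, 0.46, with an adjusted p of 0.0266, and so called 1 of the 8, where it called 22.1% of the genes it tested. The edgeR call depended on single mice: the difference was 0.53 (adjusted p = 0.046) without D2 replicate 2 and 0.57 (adjusted p = 0.0133) without D2 replicate 4, the D2 mice inside the B6 range. Exact permutation of the log2 levels (two-sided) over the 252 assignments of 5 and 5 mice gave p = 0.0794 for Pvalb, the smallest of the 8, and p = 0.921 for Cck, the largest.

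The other 7 genes did not pass the test. On the log2 scale edgeR put D2 minus B6 at -0.09 ± 0.0846 (standard error) for Sst, 0.18 ± 0.0936 for Npy, -0.03 ± 0.0719 for Nos1 and 0.13 ± 0.207 for Chodl. It was 0.29 ± 0.208 for Calb2, 0.15 ± 0.3997 for Vip and -0.35 ± 0.512 for Cck, and their adjusted p ran from 0.240 for Npy to 0.856 for Vip. The standard errors of Vip and Cck were the widest of the 8, so that a difference of a doubling in either direction was within 3 standard errors for both. For Cck the direction itself was not fixed, since the difference of the mean log2 levels was 0.07, with D2 the higher.

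Accounting for B6 replicates 3 and 5 in different ways changed which genes were called. With the log2 level of Slc17a7 as a covariate, 5 of the 8 passed in edgeR, against 26.2% of all genes (13.1% higher and 13.1% lower in D2). Calb2 was then higher in D2 by 0.52 on the log2 scale (adjusted p = 0.0036), Pvalb by 0.50 (adjusted p = 0.024) and Chodl by 0.39 (adjusted p = 0.0229), and both Cck (-0.43, adjusted p = 0.0174) and Sst (-0.15, adjusted p = 0.0377) were lower. Npy (0.11), Nos1 (0.04) and Vip (0.01) did not pass. With replicates 3 and 5 left out instead, 3 of the 8 passed, against 19.3% of all genes. These were Vip, higher in D2 by 1.18 (adjusted p = 0.00134), Cck by 1.07 (adjusted p = 0.0109) and Npy by 0.30 (adjusted p = 0.0297). In the same 8 mice Slc17a7 was itself higher in D2 by 2.07 (adjusted p = 0.00112), since the 3 remaining B6 mice were all below the 5 D2 mice. Cck was the only gene called in both of these fits, and its direction was opposite in them. Pvalb kept its direction and most of its size in all of them, 0.45 with all mice, 0.50 with the covariate and 0.43 (adjusted p = 0.153) without replicates 3 and 5.

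**Figure D2:**
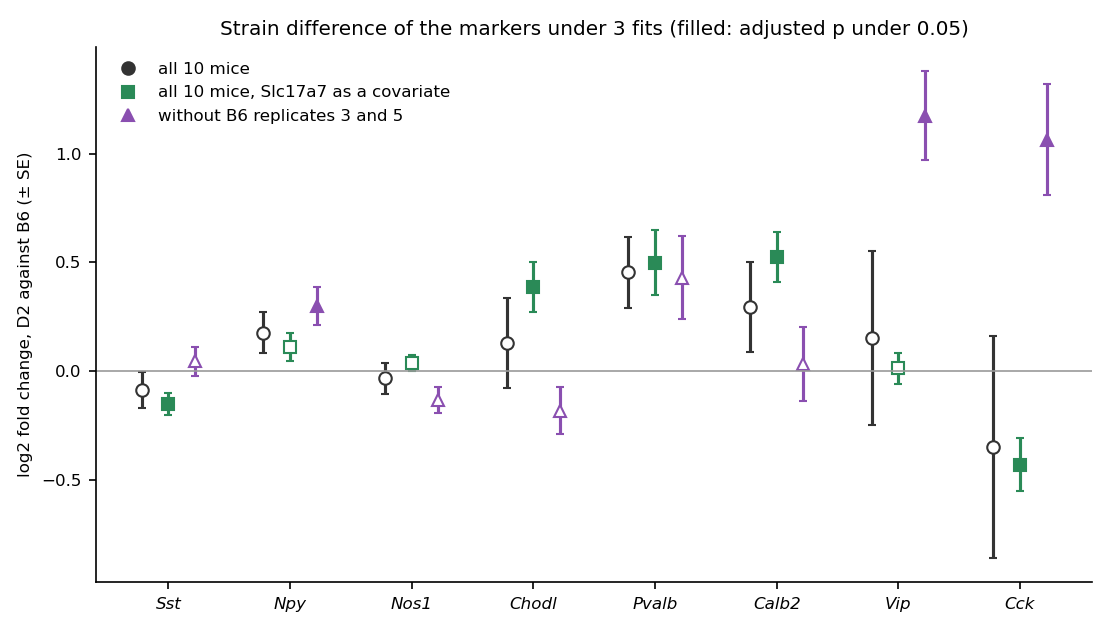
Strain difference of each gene as a log2 fold change (D2 over B6), with bars of ± 1 standard error, from edgeR with all 10 mice (circles), with Slc17a7 as a covariate (squares) and without B6 replicates 3 and 5 (triangles). Filled symbols passed an adjusted p of 0.05. The fold change of Cck was -0.35, -0.43 and 1.07 in these fits, while that of Pvalb stayed between 0.43 and 0.50.

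Within a strain the genes varied more than most. The SD of the log2 level around the strain means was 0.09 for the median gene with at least 100 mean normalized counts. Over all 10 mice it was 0.13 for Nos1, 0.16 for Sst and 0.18 for Npy, then 0.31 for Pvalb, 0.40 for Chodl, 0.41 for Calb2, 0.79 for Vip and 1.02 for Cck. Cck varied more than 99.5% of these genes and Nos1 more than 66.6%. With B6 replicates 3 and 5 left out, the SD was 0.49 for Cck, 0.37 for Vip, 0.36 for Pvalb, 0.33 for Calb2 and between 0.10 and 0.16 for Nos1, Sst, Npy and Chodl, against 0.08 for the median gene, and Cck still varied more than 98.6% of the genes and Nos1 more than 61.2%. The highest B6 mouse exceeded the lowest 6.81-fold for Cck and 5.16-fold for Vip, but 1.30-fold for Nos1 and for Pvalb. Among D2 mice the ratio was 2.56 for Cck, 1.77 for Vip and 1.17 for Nos1, and Pvalb was the one gene that varied more in D2, 2.04-fold.

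Much of this spread went with the level of Slc17a7. A slope on the strain-centered log2 level of Slc17a7 was fitted in edgeR together with the strain, and it gives the log2 change of a gene per doubling of Slc17a7. Here 7 of the 8 were called at an adjusted p under 0.05, against 11.8% of all genes (6.61% upward and 5.24% downward). Cck rose by 0.71 ± 0.0483 (standard error) per doubling (adjusted p = 2.86e-07) and Vip by 0.56 ± 0.0287 (adjusted p = 1.92e-08). Sst rose by 0.09 ± 0.019 (adjusted p = 0.0038) and Npy by 0.10 ± 0.0244 (adjusted p = 0.0188). In the other direction the slope was -0.25 ± 0.045 for Chodl (adjusted p = 0.00148), -0.24 ± 0.0447 for Calb2 (adjusted p = 0.00186) and -0.09 ± 0.0138 for Nos1 (adjusted p = 5.88e-04). Pvalb did not pass, with -0.07 ± 0.0581 (adjusted p = 0.555). With all mice, the slopes of the 3 genes of the Sst, Npy and Nos1 class thus differed in direction, since Sst and Npy rose and Nos1 fell. Without B6 replicates 3 and 5 none of these 3 slopes passed. All of these levels were read from the same libraries as Slc17a7.

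**Figure D3:**
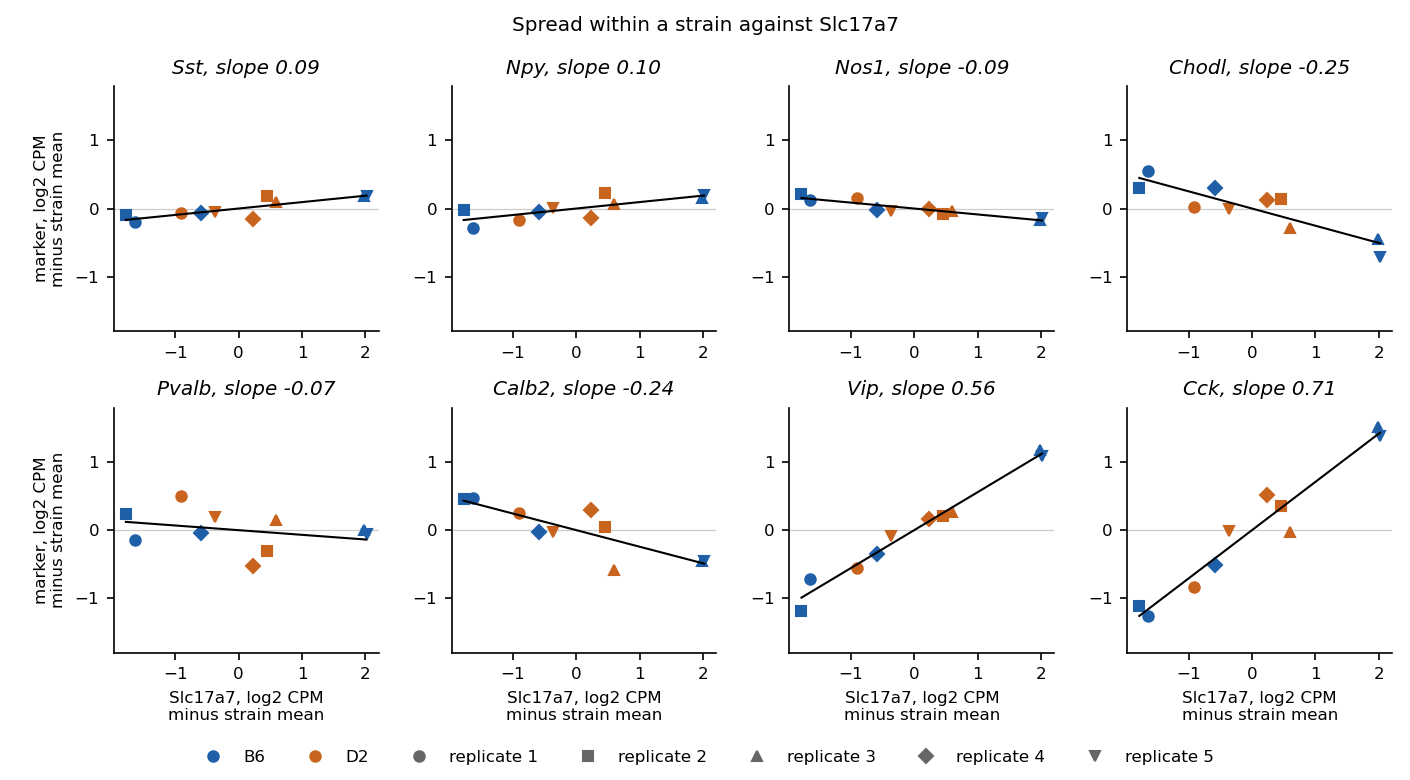
Level of each gene against that of Slc17a7 in the 10 mice, both as log2 CPM minus the strain mean, with the edgeR slope as a line. B6 replicates 3 and 5 lie together at the right of every panel. The points of Vip follow the line over its whole length (slope 0.56), and those of Pvalb do not (slope -0.07). The points of Cck (slope 0.71) scatter more among the other 8 mice, where r was 0.827 against 0.938 for Vip.

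Most of these calls were lost without B6 replicates 3 and 5. In the other 8 mice 1 of the 8 genes passed, against 0.669% of all genes. Vip still rose, by 0.54 per doubling (adjusted p = 0.0128), and Cck had a slope of 0.64 (adjusted p = 0.063), both close to the values in all mice. The slopes of Sst (0.10), Npy (0.14), Nos1 (-0.14) and Calb2 (-0.33) kept their direction and were no smaller without passing, with adjusted p from 0.113 for Nos1 to 0.6001 for Sst. That of Chodl shrank to -0.07 (adjusted p = 0.903), and that of Pvalb was -0.32 (adjusted p = 0.442). In the D2 mice alone Vip passed as well, with 0.53 per doubling (adjusted p = 0.0369), 1 of the 8 where 0.328% of all genes passed. Cck had a slope of 0.67 there (adjusted p = 0.277). In the B6 mice alone 7 of the 8 passed, against 12.1% of all genes. A slope that differed between the strains was tested in the same model and was called for 0 of the 8 and for 0 of all genes in edgeR, with 2117 genes at an unadjusted p under 0.05 where chance would give about 1494. Among the 8, Pvalb was the only one at that unadjusted level, its slope being lower in D2 than in B6 by 0.39 (unadjusted p = 0.0262, adjusted p = 0.683).

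The same relation was tested as a correlation. Over all 10 mice, strain-centered log2 levels correlated with Slc17a7 for 7 of the 8 genes at an adjusted p under 0.05 (two-sided exact permutation of Pearson's r within strains, Benjamini-Hochberg over the 8 genes), and for 6 of the 8 by Spearman's rho. The coefficients with Slc17a7 are given over the other 8 mice, since B6 replicates 3 and 5 lie apart from them. There Vip had r = 0.938 (adjusted exact p = 0.0111) and rho = 1.00 (adjusted exact p = 0.0111). Cck had r = 0.827 (adjusted exact p = 0.0889) and rho = 0.667 (adjusted exact p = 0.236), and Nos1 had r = -0.873 (adjusted exact p = 0.0889) and rho = -0.810 (adjusted exact p = 0.172). Cck and Nos1 did not pass, nor did the other 5 genes in these 8 mice: r was 0.517 for Sst, 0.549 for Npy, -0.280 for Chodl, -0.669 for Calb2 and -0.580 for Pvalb, with adjusted exact p from 0.222 to 0.571. Their rho was 0.500, 0.452, -0.143, -0.595 and -0.619 in the same order, with adjusted exact p from 0.236 to 0.793. In terms of r squared, the level of Slc17a7 went with 88.0% of the variance of Vip within strains in the 8 mice, with 76.2% for Nos1, 68.4% for Cck and 44.7% for Calb2, and with 15.7% for the median gene. Pvalb (33.7%) was the one gene with a closer relation in these 8 mice than in all 10, and Chodl (7.84%) had the loosest.

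The 8 genes also moved with one another in a few pairs. Of the 28 pairs, 5 passed an adjusted p of 0.05 over all 10 mice (two-sided exact permutation of Pearson's r within strains, Benjamini-Hochberg over 28). These were Sst with Npy, Vip with Cck and Chodl with Calb2 in the same direction, and Nos1 with Vip and with Cck in opposite directions. No pair passed by Spearman's rho, where Sst with Npy had the smallest adjusted exact p, 0.0544. Without B6 replicates 3 and 5 no pair passed either: Nos1 with Vip had r = -0.935 and rho = -0.810 (adjusted exact p = 0.195 and 0.393), and Sst with Npy had r = 0.909 and rho = 0.810 (adjusted exact p = 0.194 and 0.393).

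The genes that direct interneuron development moved in both directions. Of 14 fate and maturation factors, 3 rose and 4 fell with Slc17a7, where 6.61% of all genes rose and 5.24% fell. Satb1, which Sst and Pvalb interneurons need to mature, rose by 0.31 per doubling (adjusted p = 3.47e-06), and Maf rose by 0.10 (adjusted p = 7.53e-04). Nkx2-1 and Lhx6, which specify interneurons of the medial ganglionic eminence and are also expressed by cholinergic neurons, fell by 0.35 (adjusted p = 2.00e-06) and 0.30 (adjusted p = 1.41e-06), and Dlx5 fell by 0.20 (adjusted p = 2.17e-05). Without B6 replicates 3 and 5, Lhx6 was the 1 factor still called (-0.45, adjusted p = 8.28e-04), against 0.669% of all genes. Between the strains 1 of the 14 was higher and 1 lower in D2, and 12 were not called, where 18.3% of all genes passed. The higher one was Sox6 (0.25, adjusted p = 0.0213). With B6 replicates 3 and 5 left out, Sox6 was not called (0.21, adjusted p = 0.0753).

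All 4 genes of GABA synthesis and transport fell with Slc17a7, as Nos1, Chodl and Calb2 did, against 5.24% of all genes. The slope was -0.16 for Gad2 (adjusted p = 1.74e-04) and -0.14 for the vesicular transporter gene Slc32a1 (adjusted p = 1.03e-04). Gad1, higher in D2 by 0.23 (adjusted p = 0.0358), was the 1 gene of the list called by strain, against 18.3% of all genes. Without B6 replicates 3 and 5, 1 of the 4 slopes was still called, downward, against 0.669% of all genes in either direction. Those of Gad2 (-0.13, adjusted p = 0.459) and Slc32a1 (-0.14, adjusted p = 0.344) then did not pass. The strain difference of Gad1 (0.14, adjusted p = 0.127) did not pass without them either. The striatal projection neurons use these genes too.

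Among 20 further genes of interneuron classes, 7 rose and 7 fell with Slc17a7, where 6.61% of all genes rose and 5.24% fell. Cort, which encodes the somatostatin-related peptide cortistatin, rose by 0.66 per doubling (adjusted p = 6.05e-06), Crhbp by 0.41 (adjusted p = 1.94e-06) and Ndnf, a marker of neurogliaform cells of the outer cortex, by 0.33 (adjusted p = 1.41e-06). Cbln4 fell by 0.36 (adjusted p = 4.30e-07), Crh by 0.26 (adjusted p = 0.00223) and Elfn1 by 0.22 (adjusted p = 0.00177). Without B6 replicates 3 and 5, Elfn1 was the 1 gene of the list called (-0.48, adjusted p = 0.00804), against 0.669% of all genes. Between the strains 1 was higher and 3 lower in D2, a share to be read against the 18.3% of all genes that passed. Syt2, the calcium sensor of Pvalb terminals, was higher by 0.49 (adjusted p = 0.0462), close to the log2 fold change of Pvalb. Cox6a2, a mitochondrial subunit enriched in Pvalb interneurons, was lower (-0.65, adjusted p = 8.91e-04), as were Pthlh (-0.38, adjusted p = 0.0395), which marks a Pvalb-related striatal class, and Th (-0.30, adjusted p = 0.0296). With those 2 mice left out, Cox6a2 (-0.52, adjusted p = 0.00499) and Th (-0.35, adjusted p = 0.0225) were still called, and Syt2 (0.39, adjusted p = 0.153) and Pthlh (-0.24, adjusted p = 0.202) were not.

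Of 12 receptor genes of the 4 peptides among the members, 3 were higher and 0 lower in D2, a share to be read against the 18.3% of all genes that passed, and the other 9 were not called. Sstr5, a somatostatin receptor gene, had 0.457 to 1.54 CPM in B6 and 4.27 to 5.34 CPM in D2, a log2 fold change of 2.18 (adjusted p = 2.04e-04), and the ranges did not overlap. Vipr2, the gene of a VIP receptor, had 0.812 to 1.13 CPM in B6 and 1.37 to 2.75 CPM in D2 (0.93, adjusted p = 0.00234). Npy2r, the gene of a neuropeptide Y receptor, had 8.63 to 18.5 CPM in B6 and 18.9 to 24.1 CPM in D2 (0.59, adjusted p = 0.0441). All 3 also passed without B6 replicates 3 and 5, at 1.72, 0.98 and 0.30. With Slc17a7, 6 receptor genes rose and 5 fell, where 6.61% of all genes rose and 5.24% fell. Sstr3 (0.56, adjusted p = 2.20e-08), Sstr2 (0.39, adjusted p = 1.45e-06) and Cckbr (0.25, adjusted p = 2.00e-06) rose, while Cckar (-1.19, adjusted p = 6.15e-07), Sstr5 (-0.36, adjusted p = 0.00567) and Npy2r (-0.25, adjusted p = 1.41e-06) fell. Without B6 replicates 3 and 5, Sstr3 still passed (0.45, adjusted p = 0.0269), while Sstr2 (0.23, adjusted p = 0.283), Npy2r (-0.21, adjusted p = 0.0842) and Sstr5, whose sign turned (0.09, adjusted p = 0.834), did not. The 2 cholecystokinin receptor genes thus had opposite slopes, and both passed without B6 replicates 3 and 5, Cckbr with 0.31 (adjusted p = 0.0348) and Cckar with -0.90 (adjusted p = 0.0119).

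**Figure D4:**
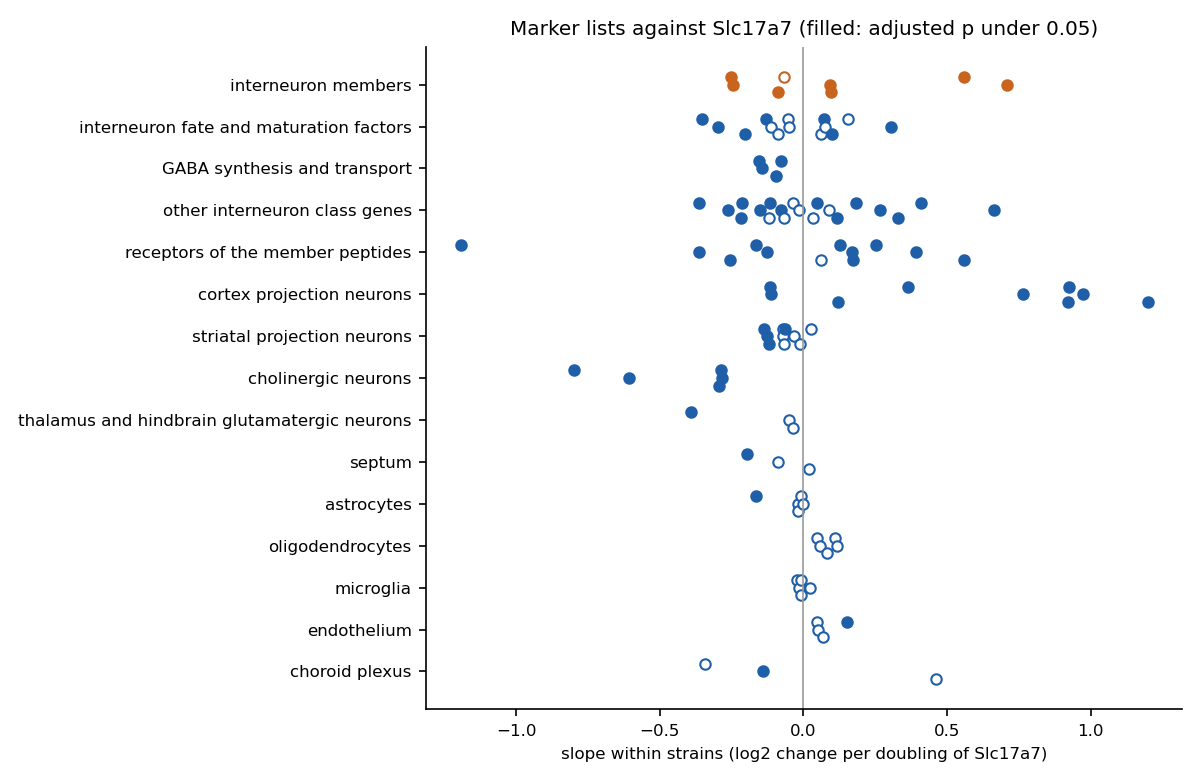
Slope of every gene of the marker lists on Slc17a7, in log2 change per doubling within strains, from edgeR with all 10 mice. Filled points passed an adjusted p of 0.05, and the 8 genes of the report are in orange. Vip and Cck (0.56 and 0.71) lie beyond the GABA synthesis genes, and Cort (0.66) and the receptor gene Sstr3 (0.56) lie at similar slopes. The cortical genes run from -0.12 to 1.20. Chodl and Calb2 (-0.25 and -0.24) lie near the least negative cholinergic genes.

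Markers of other cells moved with Slc17a7 as well, to be read against the 6.61% of all genes that rose and the 5.24% that fell. Of the 9 other genes of cortical projection neurons, 7 rose, among them Neurod6 (0.97, adjusted p = 1.05e-07) and Emx1 (0.92, adjusted p = 2.76e-09), and Lamp5 and Cux2, which other neurons also express, fell (-0.12 and -0.11). All 5 cholinergic genes fell, led by Gbx2 (-0.80, adjusted p = 1.12e-06) and Lhx8 (-0.61, adjusted p = 3.23e-08), and their summed level ran from 43.2 to 103 CPM in B6 and from 74.1 to 124 CPM in D2. Of 10 striatal projection neuron genes 0 rose and 4 fell, with slopes down to -0.14 for Penk. Without B6 replicates 3 and 5 these counts were 5 of 9 cortical genes upward, 3 of 5 cholinergic genes downward and 0 of 10 striatal genes. Of all genes, 0.669% passed in that fit. Of 3 thalamic and hindbrain genes 1 fell, of 3 septal genes 1, of 5 astrocyte genes 1 and of 3 choroid plexus genes 1, and of 4 endothelial genes 1 rose, whereas 0 of 5 oligodendrocyte genes and 0 of 5 microglial genes passed. The part of each of these cell types in the slopes of the 8 genes was not tested.

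By strain, 0 of the 10 cortical and 0 of the 5 cholinergic genes passed, against 18.3% of all genes. Of the 3 thalamic and hindbrain genes 0 passed, and of the 4 endothelial genes 0. In D2, 6 striatal projection neuron genes, 3 oligodendrocyte genes, 2 astrocyte genes and 1 choroid plexus gene were lower, 1 septal gene was higher, and the microglial list had 1 gene in each direction. The median log2 difference of D2 from B6 was 0.14 over the 8 interneuron genes and 0.0036 over all genes, and the median slope on Slc17a7 was 0.0128 over the 8 and -0.0043 over all genes.

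The genes most like each member were sought among the same 15388 genes, by Pearson's r of strain-centered log2 levels over the 10 mice, and the r printed is that of the chosen pair in the 8 mice without B6 replicates 3 and 5, as a description. Vip was most like Smim43 (r = 0.961) and Kcnv1 (0.983), and Cck most like Gask1b (0.957) and Brinp2 (0.966). Nos1 was most like Lrrc75b (0.990) and Morf4l1 (0.961), Calb2 like Adgrg1 (0.978) and Gm43693 (0.954), Pvalb like Mif (0.977) and Cyp2s1 (0.978), and Chodl like Plce1 (0.932) and Gm26604 (0.850). Sst (Rlbp1, 0.961) and Npy (Clu, 0.955) shared Gm37069 among their nearest genes, with r = 0.964 and 0.953. No member was among the 2 genes most like another member.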

How the data were processed

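RNA of the NAc was measured in 5 B6 and 5 D2 mice, grouped by the sample labels. Per the labels and methods, the authors trimmed reads (fastp), aligned both strains with STAR 2.7.10b to GRCm39, a B6 genome on which D2 reads can be lost, sorted with SAMtools 1.6 and counted with featureCounts. The libraries were stranded, and whether counting used the strand is not given in the sources used here. Raw gene counts were deposited, without genes whose median was 0. The authors' columns of medians and means were not used.

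Symbols, positions and lengths came from GENCODE (GRCm39), which held 29519 of the 29883 genes. Counts were fitted in edgeR 4.0.16 (R 4.3.3) with TMM normalization and the two-sided quasi-likelihood F test, Benjamini-Hochberg adjusted over all genes, with a threshold of 0.05. The standard errors given for edgeR were derived from that test, as the absolute log2 estimate divided by the square root of F. Log2 CPM used a prior count of 2. The slope was fitted on strain-centered log2 CPM of Slc17a7, and Slc17a7 was left out of that fit's adjustment. Single values were tested by exact permutation in Python 3.11.15 (scipy 1.17.1). The edgeR scripts were tested on simulated data.

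The alternatives were DESeq2 1.42.0, other normalizations, filters, covariates, a replicate block and each mouse left out. Those that leave out or average B6 replicates 3 and 5, or fit 1 strain alone, were chosen after seeing the data. The test of a slope that differs between the strains was not planned in advance either. The 8 genes and the 14 marker lists, written from general knowledge, were chosen with earlier results of these data known. The text names the 8 genes, Slc17a7, from each list up to 3 called genes with the largest changes per direction and fit, and the 2 genes most like each of the 8. Of the genes under this rule, 3 are not reported here.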

Additional observations from a re-analysis of the deposited data

Results flagged for a closer look

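Nos1 had 116 CPM in D2 replicate 1, above the other 4 D2 mice, whose values lay close together. The gap to the next D2 mouse, relative to the whole range, was 0.729, over Dixon's 95% critical value of 0.71 for 5 samples. Chance flags about 1 in 20 groups, and 18 groups were examined (the 8 genes and Slc17a7 in each strain). The value lies within the range of the B6 mice.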

How the results depend on the processing

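Strain difference. The count of the 8 genes called was 0 in edgeR with all mice and 1 with DESeq2. It was 4 with the cortical list and 5 with Slc17a7 as a covariate, and 3 without B6 replicates 3 and 5 together. In the same order, these fits called 5478, 6208, 7801, 7841 and 5754 of all genes. Leaving out each mouse in turn gave 0 to 1 of the 8 and 4636 to 5676 genes. The sign reversed for Cck under the replicate block (0.0682), in the exact test (0.0698), with B6 replicates 3 and 5 averaged as 1 library (0.0416), without B6 replicate 3 (0.0774) and without both (1.07). It reversed for Nos1 with Slc17a7 (0.0366) or the cortical list (0.0232) as a covariate and without B6 replicate 2 (0.0222), for Vip without B6 replicate 1 (-0.023) or 2 (-0.0647), for Chodl without B6 replicate 5 (-0.0161) or both 3 and 5 (-0.18), and for Sst without both (0.0449). With each mouse left out these genes ranged from -0.0735 to 0.0222 (Nos1), -0.0161 to 0.276 (Chodl), -0.0647 to 0.481 (Vip) and -0.584 to 0.0774 (Cck). The cause was not tested.

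Slope on Slc17a7. Of all genes 3541 passed, and 200 without B6 replicates 3 and 5, 98 in D2 alone and 1925 with the pair averaged. Leaving out each mouse gave 1960 to 3780 genes, with 2020 without B6 replicate 3 and 1960 without B6 replicate 5, and 6 to 7 of the 8 members. Of the 8, 1 passed without both and 1 in D2 alone. Npy was no longer called without B6 replicate 1, 3 or 5. The correlation passed for 7 of the 8 in all mice and for 1 without the 2 mice farthest from the median, which are B6 replicates 3 and 5. On the mean of the striatal list instead, 602 genes and 0 of the 8 passed, and all signs reversed: Sst -0.69, Npy -0.56, Nos1 0.48, Chodl 1.74, Pvalb 0.73, Calb2 1.03, Vip -4.07 and Cck -5.20 per doubling. The cause was not tested.

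Replicate numbers. Same-numbered mice of the strains did not deviate together (correlations of 0.372, -0.417, 0.367, 0.0328 and -0.294), and 2 of the 5 B6 mice were most like their own number, so the numbers were not taken as pairs. With the replicate number as a block, 4731 genes and 0 of the 8 differed by strain, and 1770 genes and 3 of the 8 (Sst, Vip and Cck) passed for the slope.

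The other normalizations, the filters and the other cortical genes in place of Slc17a7 reversed no sign. The lowest count of a member in any mouse was 208. With 5 mice per strain, a p that misses the threshold does not show that the strains are alike.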
